A study of Mus musculus with 4 samples.

Results

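The cells described here were the macrophages and other myeloid cells of the neonatal mouse oviduct and uterus: 223 of 21326 cell barcodes kept from 4 single-cell RNA-seq libraries. A barcode was counted as myeloid when it held at least 500 genes and at most 15% of its unique molecular identifiers (UMIs, counted RNA molecules) from mitochondrial genes, when at least 3 of the 7 genes Tyrobp, Fcer1g, Csf1r, C1qa, C1qb, Cd68 and Lyz2 were detected, when these 7 genes together made up at least 0.1% of its UMIs, and when it held 0 UMIs of Epcam, Cdh5 and Upk3b, markers of epithelium, endothelium and mesothelium. The study dissociated oviducts and uteri of wild type, untreated CD1 mice on postnatal day 3 with a mix of dispase II, collagenase B and DNase I, and loaded the cells on the 10x Genomics 3′ platform. Each organ gave 2 libraries, from pools of 3 and of 4 neonates that supplied both organs, so that every library is a pool and no value belongs to 1 animal. The labels name the cells of all libraries mesenchymal and epithelial, and no sort for blood cells is described. The number of myeloid cells was 71 in oviduct replicate 1, 69 in oviduct replicate 2, 47 in uterus replicate 1 and 36 in uterus replicate 2.

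Tissue macrophages are long-lived phagocytes that clear dying cells, handle iron and lipids from what they take up and present antigen, and they depend on signals through the receptor Csf1r from the ligands Csf1 and Il34. In the developing organs of newborn animals most of them derive from embryonic precursors, while monocytes and neutrophils arrive with the blood and dendritic cells specialise in class II antigen presentation. In the adult reproductive tract such cells take part in tissue remodelling and defence. The 2 organs compared here arise from neighbouring parts of the same Müllerian duct.

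Myeloid cells were shallow libraries within these data. Their median UMI count was 3395, 2368, 3729 and 3138.5 in oviduct replicates 1 and 2 and uterus replicates 1 and 2, against medians of 11148 to 13961 over all kept barcodes of the same libraries. The 88 myeloid cells with 5000 UMIs or more (32, 22, 22 and 12 in the same order) held between 81.0% and 89.0% of all myeloid UMIs of their library, so that values summed over a library's cells describe mainly these deeper cells. The sums held 655096, 460494, 376965 and 347569 UMIs. No barcode of a myeloid cell occurred in more than 1 library, and pairs of libraries shared 8 to 15 of all their called barcodes. The labels used here give no date or sequencing batch.

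The 7 genes of the rule chose the cells, and their levels are given only as a description. All 7 were detected in 64 of the 223 cells, 6 in 42, 5 in 53, 4 in 38 and 3 in 26, and the median cell devoted 0.960% of its UMIs to them. Just inside the lower limit lay cells at 0.104% to 0.117% and just outside lay cells at 0.0784% to 0.0923%, the nearest in each library. The rule's exclusion genes alone kept out 13, 6, 2 and 1 further cells. In UMIs summed over a library's myeloid cells, scaled to one common total for every library (CPM) and given here and below for replicates 1 and 2 of each organ in turn, the signalling adaptor Tyrobp stood at 1907 and 1731 CPM (oviduct) and 1899 and 1369.5 CPM (uterus). Csf1r stood at 803 and 727 CPM (oviduct) and 586 and 328 CPM (uterus). Endothelial cells of the same libraries, chosen by a rule of the same form (653 cells), held 0 UMIs of Tyrobp, which their rule required, and 0.366 to 0.907 CPM of Csf1r.

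The label was checked on genes that the rule did not use. Ptprc, the leukocyte phosphatase CD45, was at 237 and 243 CPM (oviduct) and 456 and 201 CPM (uterus), and its highest level in endothelial cells was 0.183 CPM. Adgre1, the macrophage surface protein F4/80, was at 336 and 304 CPM (oviduct) and 371 and 386 CPM (uterus) and had 0 UMIs in the 653 endothelial cells. At least 3 of 10 neutrophil markers were found in 0, 3, 4 and 4 of the cells, in the order of libraries above, and at least 3 of 10 monocyte markers in 4, 5, 12 and 4. No myeloid cell held 3 markers of mast cells, of eosinophils or basophils, or of lymphoid cells. Stromal markers were seen as well: 18, 14, 4 and 8 of the cells held 3 or more of 10 stromal genes, and these genes summed to 2032, 738, 133 and 823 CPM in the myeloid cells. If all of that RNA came from free RNA in the droplets, free RNA would make up at most 33.7%, 14.9%, 5.69% and 34.2% of the myeloid UMIs.

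**Figure D1:**
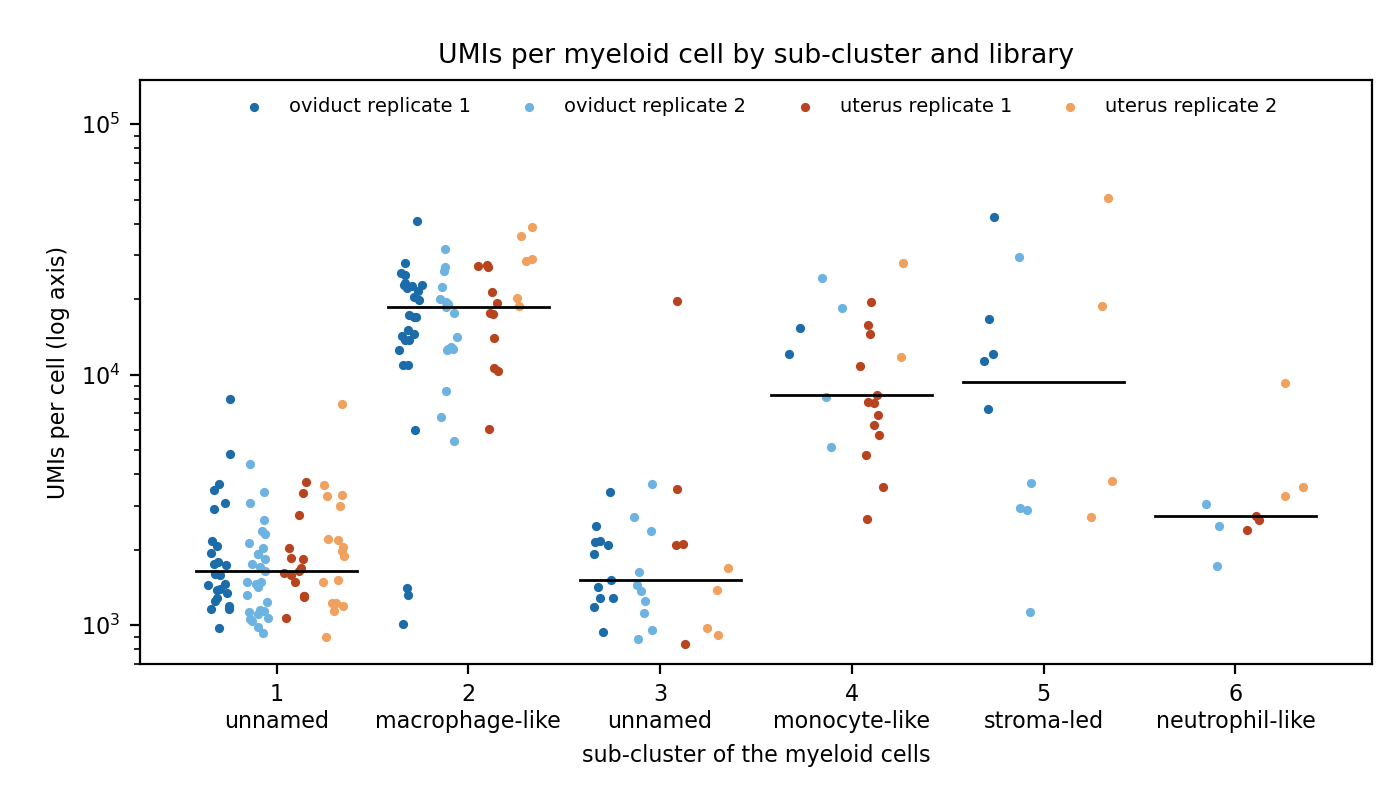
UMIs per myeloid cell (log axis, 1 point per cell, colour for library) in the 6 sub-clusters, with the median as a bar. The macrophage-like cells have a median of 18595 UMIs and the 2 unnamed sub-clusters medians of 1640 and 1513 UMIs.

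Clustering the 223 cells by expression gave 6 sub-clusters, of which 4 were named. Other settings, including libraries left out, gave 5 to 9 sub-clusters with 2 to 4 named, and at the finer resolution of 1 no sub-cluster met the naming rule for macrophages. The genes that lead a sub-cluster helped to form it and are listed as a description. Sub-cluster 2, of 61 cells, was macrophage-like: C1qa, C1qb and C1qc, the chains of the complement protein C1q, were at 2785, 2309 and 1489 CPM, and the mannose receptor Mrc1 at 1426 CPM. It was led by Bmp2, Ccl4, Ccl3, Ccl2, Rgs1 and Rcan1, a growth factor, 3 chemokines and 2 signalling regulators. Sub-cluster 4, of 21 cells, was monocyte-like: the chemokine receptor Ccr2 was at 1006 CPM and the lysozyme gene Lyz2 at 7887 CPM, while C1qa was at 248 CPM and Mrc1 at 4.21 CPM. A single cell, of oviduct replicate 2, held 58 of the 59 UMIs of C1qa in this sub-cluster. That cell also held 19 UMIs of C1qb and 0 of Plac8, and the monocyte name is uncertain for it. C1qa, C1qb and Lyz2 are genes of the rule that chose the cells, so their levels are a description. The leading genes of sub-cluster 4 were H2-Ab1, Cd74, Plac8, S100a4, Naaa and Ccr2. The name does not hold for 3 of the 21 cells, 1 of uterus replicate 1 and both of uterus replicate 2. These 3 held 0 UMIs of Csf1r and at most 9 of Lyz2, and carried dendritic cell markers. They held most of the UMIs of H2-Ab1, Cd74 and Naaa, and 19, 44 and 16 UMIs of Ccr2.

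Sub-cluster 6, of 9 cells, was neutrophil-like, with the calprotectin subunits S100a8 and S100a9 at 47608 and 82133 CPM and 0 UMIs of C1qa, Mrc1 and Adgre1. Stefin A genes (BC100530, Stfa2, Stfa3, Stfa2l1) also led it; they are near-identical copies, so their separate counts are uncertain. In uterus replicate 2, 1 of the 9 cells held 1011 UMIs of S100a8 and 1462 of S100a9, most of those in the sub-cluster. That cell also held 309 UMIs of Ngp, 339 of Camp, 85 of Ltf and 211 of Lcn2, genes of neutrophil granules made early in maturation. The other 8 cells held 0 UMIs of Ngp, Camp and Ltf and at most 1 of Lcn2. Among them 1, also of uterus replicate 2, held 1 UMI of S100a8 and 0 of S100a9. Sub-cluster 5, of 14 cells, was led by stromal genes, with Col1a1 at 1959.7 CPM and Tyrobp at 534 CPM; 3 of its cells were among the 4 myeloid cells with high doublet scores.

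The 2 remaining sub-clusters stayed unnamed because neither had 3 markers of a cell type among its 50 leading genes, and their cells were shallow. Sub-cluster 1, of 87 cells, held the haem-degrading enzyme Hmox1 at 2065 CPM, C1qa at 1779.6 CPM and the platelet factor Pf4 at 3405 CPM, and was led by the globin Hbb-bs, a listed marker of red blood cells, AY036118, Vti1b and Lars2. Sub-cluster 3, of 31 cells, was led by genes of dividing cells (Hist1h1e, Ube2c, Hist1h4d, Spc25) and held C1qa at 1036 CPM. C1qa is a gene of the rule, so its level in these cells is a description.

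**Figure D2:**
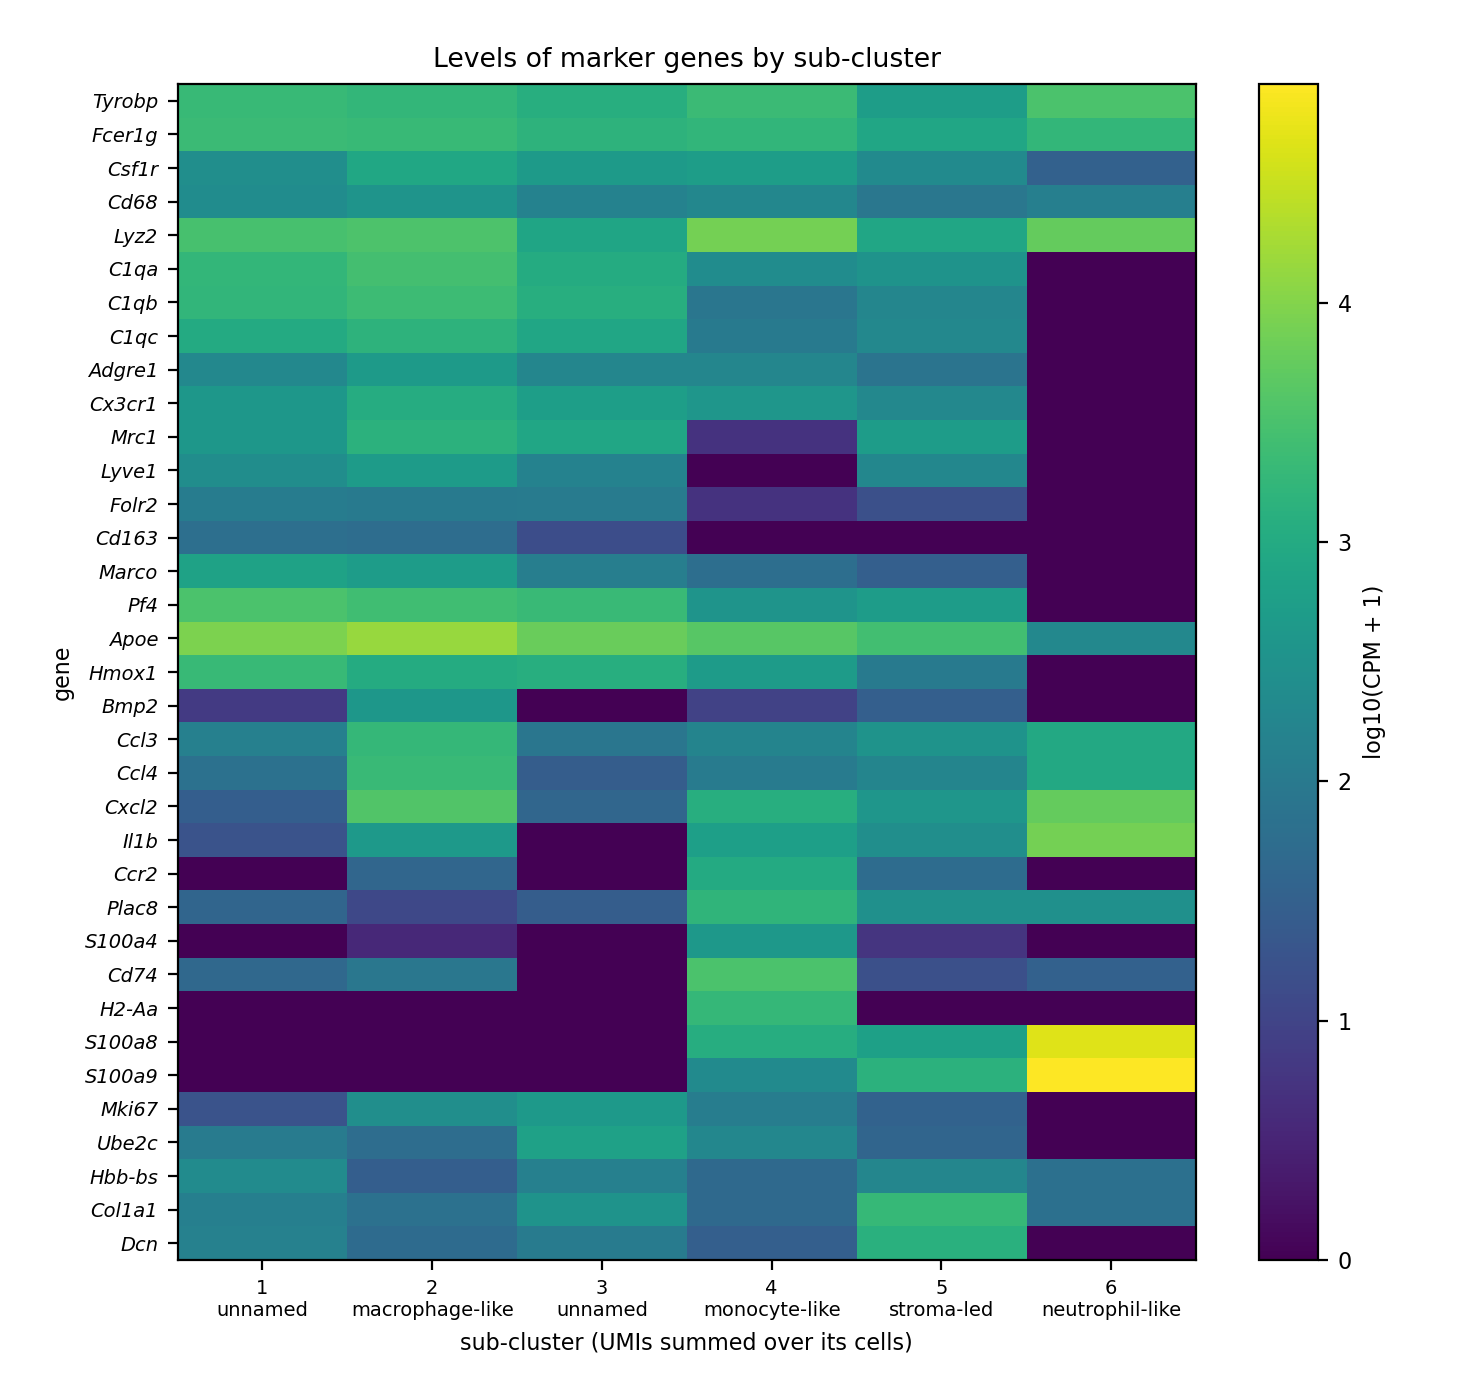
Level of 35 genes in each sub-cluster, as log10(CPM + 1) of UMIs summed over its cells. C1q genes are high in sub-clusters 1, 2 and 3, Ccr2, Plac8 and H2-Aa in sub-cluster 4, Col1a1 and Dcn in sub-cluster 5, and S100a8 and S100a9 in sub-cluster 6.

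The share of myeloid cells overlapped between the organs. The share of kept barcodes was 1.03% (exact 95% binomial interval 0.802 to 1.29) and 1.18% (0.920 to 1.49) in the oviduct libraries and 1.16% (0.852 to 1.54) and 0.799% (0.560 to 1.10) in the uterine libraries; the intervals cover counting error only. The means were 1.10% ± 0.110 and 0.978% ± 0.254 (SD, n = 2 each), the libraries of the organs overlapped, and a two-sided exact permutation test gave p = 0.667, where 2 against 2 libraries cannot go below 0.3333. Their makeup by sub-cluster varied between the libraries. The macrophage-like sub-cluster held 27 and 17 of the oviduct cells (38.0% and 24.6%) and 11 and 6 of the uterine cells (23.4% and 16.7%). These shares did not overlap between the organs, with the exact permutation p at its smallest value of 0.3333. The monocyte-like sub-cluster held 2 and 4 oviduct cells against 13 and 2 uterine cells. Uterus replicate 1 alone was thus high (27.7% against 2.82% to 5.80%). The 3 cells with dendritic cell markers are among these 13 and 2, and the cell rich in C1qa is among the 4. The neutrophil-like cells numbered 0 and 3 (oviduct) and 3 and 3 (uterus). Over all kept barcodes, whether or not they met the myeloid rule, 11 and 26 (oviduct) and 5 and 20 (uterus) held 3 or more neutrophil markers, so the counts of neutrophil-like cells are not counts of all such barcodes.

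**Figure D3:**
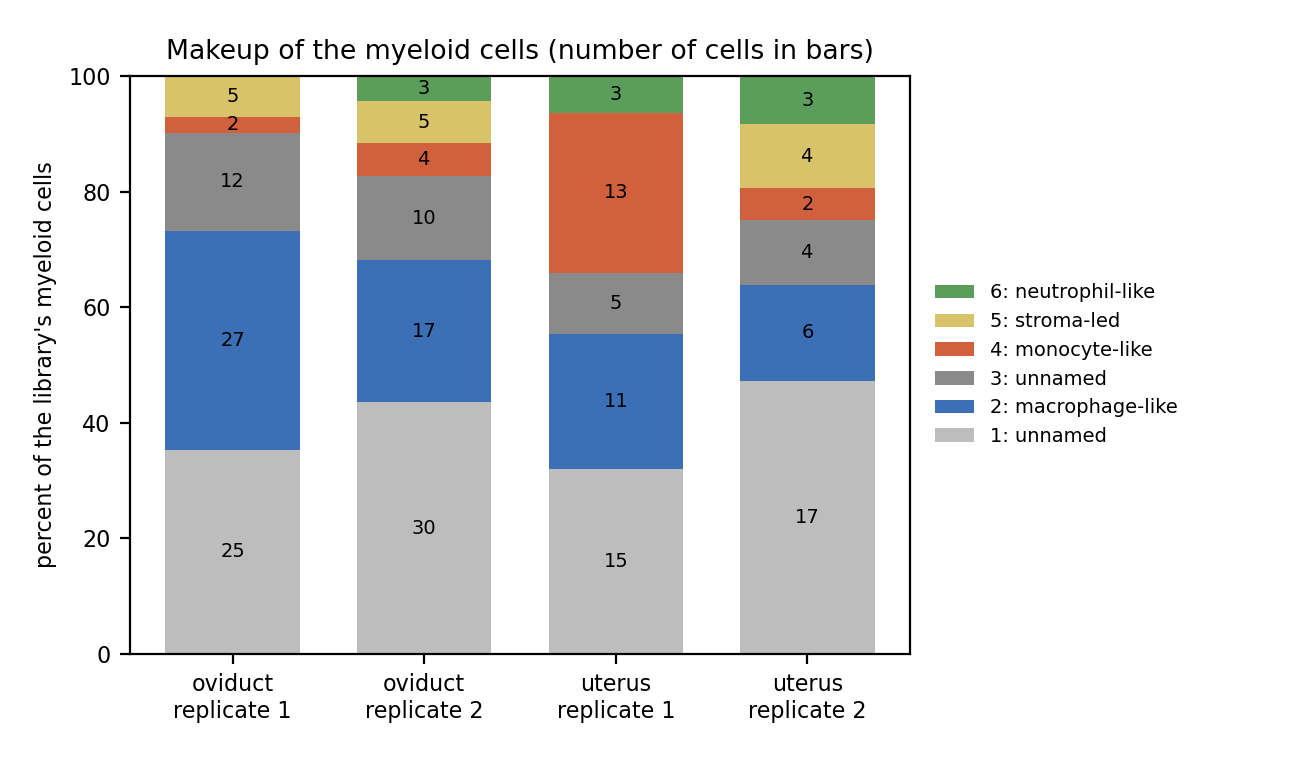
Percent of each library's myeloid cells in each sub-cluster, with the number of cells in each bar. Uterus replicate 1 holds 13 of the 21 monocyte-like cells and none of the 14 cells of the stroma-led sub-cluster.

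The design compares the oviduct with the uterus, and the myeloid UMIs of each library were summed for that test, since libraries and not cells are the replicates. In edgeR's quasi-likelihood test 5 of 5572 genes passed an adjusted p of 0.05 (0.0897% of genes tested, 0.0179% with the oviduct higher and 0.0718% with the uterus higher). Higher in the uterus were 4 genes: the class II antigen presentation genes H2-Ab1, H2-Aa and H2-Eb1, and Plbd1, a lysosomal phospholipase-like protein. Higher in the oviduct was 1 gene, Ccl3, a chemokine that attracts monocytes and other leukocytes. At an unadjusted p under 0.05 there were 392 genes (7.04%; 4.0% toward the oviduct and 3.03% toward the uterus), and DESeq2 called 23. Scaled by library totals alone, edgeR's test called 12 genes, 7 toward the oviduct and 5 toward the uterus. Fold changes below are log2 values of the oviduct over the uterus, and the median over all genes tested was -0.01. The samples of a group are separate pools, and p-values measure the spread between 2 such pools. A fit with 1 library left out has a single library in that organ. Its p-values measure the spread between the other organ's pools alone.

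The class II genes gave the largest differences, and few cells carried them. H2-Aa, at chr17:34282744-34287823 (GRCm38), encodes the alpha chain of a class II molecule and had 0 and 0 UMIs (oviduct) and 134 and 309 UMIs (uterus). Over the organs this is at least 227-fold higher in the uterus, taking 3 UMIs as the floor for the oviduct total. H2-Eb1, a class II beta chain at chr17:34305867-34316674, had 0 and 0 UMIs (oviduct) and 108 and 229 UMIs (uterus), at least 173-fold higher in the uterus against the same floor. H2-Ab1, the other beta chain at chr17:34257689-34269419, had 0 and 1 UMIs (oviduct) and 138 and 265 UMIs (uterus), a ratio of 621 (counting interval 111 to 24569). Adjusted p was 0.0390, 0.0390 and 0.0305 in the order H2-Aa, H2-Eb1, H2-Ab1. Both uterine libraries held these transcripts and the oviduct libraries had almost none. With the free-RNA bound subtracted H2-Ab1 had an adjusted p of 0.0720.

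All 443 uterine UMIs of H2-Aa lay in 4 cells, 2 per uterine library, with 9, 125, 205 and 104 UMIs each. None of the 140 oviduct cells had a UMI of it, which by count alone allows a share of up to 2.14% of cells with a UMI. The 4 cells held 11731 to 27987 UMIs in all, while 32 and 22 of the oviduct cells had 5000 UMIs or more. The 653 endothelial cells, of greater median depth (13243 to 18112 UMIs against 2368 to 3729), had 0 UMIs of it too. All 4 cells were in the monocyte-like sub-cluster. The cell with 9 UMIs held 182 UMIs of Lyz2 and 5 of Csf1r. The other 3 held 2, 9 and 6 UMIs of Lyz2 and 0 of Csf1r, C1qa and Mrc1, and they held 16, 38 and 24 UMIs of the transcription factor Irf8 and 25, 61 and 39 of the lysosomal amidase Naaa. The receptor genes Xcr1 (0, 14 and 6 UMIs) and Clec9a (2, 8 and 1), known from dendritic cells that take up dead cells, were found in these cells too; they were singled out after their values were seen. At least 3 of 10 dendritic cell markers were found in 0 of the oviduct cells, in 1 cell of uterus replicate 1 and in 2 cells of uterus replicate 2.

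Of the 10 class II genes listed, 8 were tested, 3 passed, each toward the uterus (0.0718% of all genes tested), with a median log2 fold change of -2.53, also with the genes at 0 UMIs set to their bound. The 3 that passed had at most 1 oviduct UMI and so entered the test only through the uterus, where they were high; the count and median are therefore a description. Cd74, the invariant chain that guides class II molecules through the cell, was at 84.0 and 124 CPM (oviduct) and 719 and 1539 CPM (uterus). Its fold change of -3.51 ± 0.43 (SE), adjusted p = 0.0601 did not pass the threshold in edgeR's test. Among the macrophage-like cells alone Cd74 went the other way, with 41 and 51 UMIs (oviduct) and 2 and 5 UMIs (uterus) (log2 fold change 2.70 ± 0.54 (SE), adjusted p = 0.0147). Cd74 entered that test only through the oviduct, where it was high, so this call is a description. The adjusted p was 0.0933 in DESeq2 and 0.0535 without oviduct replicate 2. The 4 cells above held 788 of the 806 uterine UMIs of Cd74.

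The promoters of H2-Aa and H2-Eb1 are shown because these genes were called together; those of H2-Ab1 and Cd74 were not analysed here. The 250 bases before the RefSeq start (GRCm38.p6) of H2-Aa (chr17:34287824-34288073, minus strand) and H2-Eb1 (chr17:34305617-34305866, plus strand) each hold CTGATTGG, the core of the Y box bound by the factor NF-Y in class II promoters, once, starting 51 and 62 bases before the start. Capitals mark the match, searched on both strands.
H2-Aa: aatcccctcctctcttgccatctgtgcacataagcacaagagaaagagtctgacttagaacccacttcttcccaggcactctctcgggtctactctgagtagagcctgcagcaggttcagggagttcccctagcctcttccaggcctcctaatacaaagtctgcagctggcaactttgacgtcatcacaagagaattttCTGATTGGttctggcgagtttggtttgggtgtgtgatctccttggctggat
H2-Eb1: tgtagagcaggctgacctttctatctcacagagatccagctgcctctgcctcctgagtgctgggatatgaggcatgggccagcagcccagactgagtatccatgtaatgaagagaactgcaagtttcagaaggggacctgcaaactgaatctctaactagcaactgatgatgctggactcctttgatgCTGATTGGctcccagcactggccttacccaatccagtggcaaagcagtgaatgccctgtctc
The motif is found in 3.83% of 32851 RefSeq windows of that length. The match describes the sequence only.

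Ccl3 was the gene called higher in the oviduct. It lies at chr11:83647844-83649355 (GRCm38) and had 1009 and 885 UMIs (oviduct) and 191 and 149 UMIs (uterus), which is 1540.2 and 1922 CPM (oviduct) and 507 and 429 CPM (uterus). Both oviduct libraries lay above both uterine libraries, with a log2 fold change of 1.85 ± 0.19 (SE), adjusted p = 0.0390 in edgeR's test. Its adjusted p was 0.122 after the free-RNA bound was subtracted, 0.0667 on thinned cells and 0.139 without cells with markers of other blood cell types, at log2 fold changes of 1.92, 1.52 and 1.75. With the replicate number as a block it was 0.158, at a fold change of 1.84, and 0 genes were then called toward the oviduct. It had 1 UMI in all 653 endothelial cells. It was detected in 28, 27, 17 and 11 myeloid cells, and no single cell held over 13.5% of an organ's UMIs.

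Other chemokine genes lay close to the threshold. Ccl7 and Ccl12, ligands of Ccr2 that recruit monocytes, stood at 762 and 879 CPM (oviduct) against 310.4 and 239 CPM (uterus) (log2 fold change 1.54 ± 0.21 (SE), adjusted p = 0.0672) and at 968 and 1027 CPM (oviduct) against 395 and 293 CPM (uterus) (log2 fold change 1.49 ± 0.20 (SE), adjusted p = 0.0672). Cxcl1 and Cxcl2, which attract neutrophils through Cxcr2, stood at 859 and 1186 CPM (oviduct) against 241 and 121 CPM (uterus) (2.46 ± 0.33 (SE), adjusted p = 0.0672) and at 3058 and 4558 CPM (oviduct) against 849 and 1177 CPM (uterus) (1.86 ± 0.26 (SE), adjusted p = 0.0769). Ccl4, a close relative of Ccl3, stood at 1556 and 1991 CPM (oviduct) against 729.5 and 693 CPM (uterus) (1.28 ± 0.18 (SE), adjusted p = 0.0769). None of these 5 genes passed the threshold in edgeR's test over all myeloid cells, although in each the oviduct libraries lay above the uterine ones. All 5 passed in edgeR's test scaled by library totals (adjusted p = 0.0428 each) and in DESeq2 (adjusted p at most 0.000108), and none passed with the replicate block (0.132 to 0.336). Ccl2, another Ccr2 ligand, stood at 1169 and 1698 CPM (oviduct) against 729.5 and 1018 CPM (uterus) (0.66 ± 0.26 (SE), adjusted p = 0.649), and Cx3cr1, a receptor that keeps macrophages in tissue, at 959 and 895 CPM (oviduct) against 663 and 561 CPM (uterus) (0.56 ± 0.17 (SE), adjusted p = 0.496).

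Over the 20 chemokine and receptor genes listed, 18 were tested, 1 was called, toward the oviduct, and the median log2 fold change was 0.58. In 11 of the 18 both oviduct libraries lay above both uterine libraries, against 21.2% of all genes tested, and in 1, Ccr2, both lay below (15.8% of all genes). Free RNA could account for at most 0.783% of Cxcl1 UMIs and at most 0.152% of Ccl3 UMIs.

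**Figure D4:**
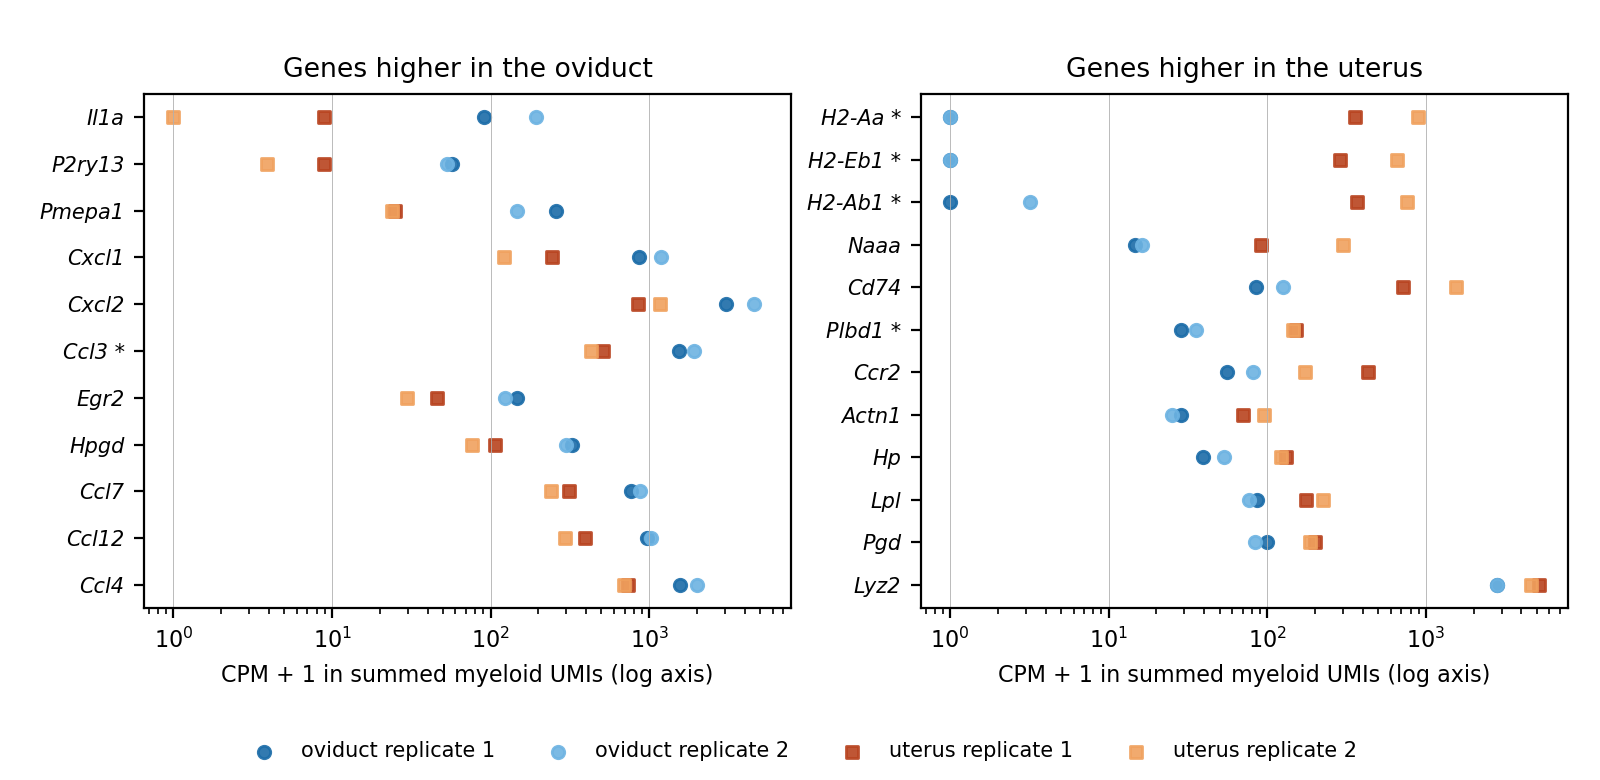
CPM + 1 (log axis) in UMIs summed over the myeloid cells of each library, for 11 genes (left, oviduct higher) and 12 genes (right, uterus higher) chosen by the rule for named genes; an asterisk marks adjusted p under 0.05. The oviduct libraries (circles) and uterine libraries (squares) do not overlap in these genes, which the rule required, and H2-Aa and H2-Eb1 sit at 0 CPM in both oviduct libraries.

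Restricting the test to the 61 macrophage-like cells (27, 17, 11 and 6 per library) raised the number of calls. This restriction was chosen after the sub-clusters were seen, and the genes it tests also helped to form the sub-cluster. In edgeR's test 48 of 3709 genes passed (1.29% of genes tested), 43 toward the oviduct (1.16%) and 5 toward the uterus (0.135%), and DESeq2 called 16. Among the 43 were 6 of 16 chemokine genes tested: Ccl3, Ccl4, Ccl7, Ccl12, Cxcl1 and Cxcl2. With the replicate block Ccl3, Cxcl1 and Cxcl2 passed, and Ccl4 (adjusted p = 0.0719), Ccl7 (0.0672) and Ccl12 (0.0857) did not. DESeq2 called each of the 6 but Cxcl2 (0.240). Ccl3 stood at 1998 and 3008 CPM (oviduct) against 833 and 673 CPM (uterus) (log2 fold change 1.70 ± 0.25 (SE), adjusted p = 0.00137). Cxcl1 stood at 1196 and 1441 CPM (oviduct) against 449 and 240.0 CPM (uterus) (1.90 ± 0.29 (SE), adjusted p = 0.00151), and Cxcl2 at 4281 and 6224 CPM (oviduct) against 888 and 1979 CPM (uterus) (1.84 ± 0.30 (SE), adjusted p = 0.00406). In all 3 the oviduct libraries lay above the uterine ones.

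Inflammatory genes were called in the same cells. Of 13 tested, 5 passed, each toward the oviduct (1.16% of all genes tested there). The median log2 fold change was 1.07, against -0.01 over all genes tested there. Ptgs2 (0 and 0 uterine UMIs), Il1a (3 and 0) and Socs3 (8 and 3) entered the test only through the oviduct. The count and median are therefore a description. With the replicate block Il1a (adjusted p = 0.00153) and Socs3 (0.0446) passed, and Nfkbia (0.0886), Nlrp3 (0.0925) and Ptgs2 (0.0610) did not. Nfkbia also missed the threshold without oviduct replicate 2 (0.154), uterus replicate 1 (0.196) or uterus replicate 2 (0.129), and Nlrp3 without oviduct replicate 2 (0.186) or uterus replicate 2 (0.136). Socs3 missed it without uterus replicate 2 (0.179), and Ptgs2 without oviduct replicate 1 (0.493) and was not tested without oviduct replicate 2. DESeq2 called Il1a and Nfkbia. Il1a, an alarm cytokine, had 59 and 80 UMIs (oviduct) and 3 and 0 UMIs (uterus) (adjusted p = 0.00137 in edgeR's test). Nfkbia, the feedback inhibitor of NF-kB, stood at 1082 and 1399 CPM (oviduct) against 530.1 and 585 CPM (uterus) (log2 fold change 1.12 ± 0.25 (SE), adjusted p = 0.0251). The inflammasome sensor Nlrp3 and the cytokine signalling inhibitor Socs3 also passed, and Ptgs2, the inducible cyclooxygenase, had 23 and 15 UMIs (oviduct) and 0 and 0 UMIs (uterus). Il1b stood at 470.3 and 689 CPM (oviduct) against 374 and 41.0 CPM (uterus), a log2 fold change of 1.43 ± 0.48 (SE) with adjusted p = 0.246. Without uterus replicate 1 its fold change was 3.73, and without uterus replicate 2 it was 0.62, each with 1 uterine library left.

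Further genes called higher in the macrophage-like cells of the oviduct, named after their values were seen, were the growth factor Bmp2 (254 and 1072 CPM (oviduct) against 40.4 and 99.5 CPM (uterus), log2 fold change 3.21 ± 0.55 (SE), adjusted p = 0.00574), the calcineurin regulator Rcan1, and Pmepa1, a brake on TGF-beta signalling (338 and 209 CPM (oviduct) against 45.4 and 17.6 CPM (uterus), 3.06 ± 0.45 (SE), adjusted p = 0.00137). The fold change of Bmp2 was 1.90 without oviduct replicate 2, and DESeq2 gave it an adjusted p of 0.248. The purine receptors P2ry12 and P2ry13 had an adjusted p of 0.0499 and 0.0227, and with the replicate block 0.0857 and 0.0610. P2ry12 also missed the threshold in DESeq2 (0.505), among the deep C1q-positive cells, those of at least 5000 UMIs with at least 2 of the 3 C1q genes (0.176), and without oviduct replicate 1 (0.174), uterus replicate 1 (0.0608) or uterus replicate 2 (0.261). P2ry13 missed it without oviduct replicate 1 (0.313), oviduct replicate 2 (0.750) or uterus replicate 2 (0.0513). Bmp2 (8 and 17 uterine UMIs), Rcan1 (4 and 4) and Pmepa1 (9 and 3) would not have entered this test on those counts alone. Nor would P2ry12 (11 and 7) or P2ry13 (2 and 1). The calls of these genes are therefore a description. Cx3cr1 stood at 1194 and 1225 CPM (oviduct) against 833 and 1036 CPM (uterus). Mki67, Top2a and Prc1, genes of dividing cells, gave 3 calls among 10 G2 and M phase genes, against 1.16% of all genes tested. Mki67 (24 and 5 uterine UMIs) and Prc1 (1 and 1) would not have entered the test on their uterine counts alone. The count of calls is therefore a description. Of 12 S phase genes 0 passed (median log2 fold change -0.08). The histone genes Hist1h1c, Hist1h1e, Hist1h2ap and Hist1h1b, on neither list, were also called toward the oviduct. Hist1h1b had 151 and 224 UMIs (oviduct) and 2 and 2 UMIs (uterus) (adjusted p = 2.8e-05 in edgeR's test, 3.4e-05 with the replicate block). On their uterine counts alone none of these histone genes would have entered the test, so their calls are a description. Its fold change was 5.57 in the macrophage-like cells and 2.26 over all myeloid cells (adjusted p = 0.496 in edgeR's test). Among the deep C1q-positive cells it was 2.50, with an adjusted p of 0.0465 in edgeR's test and 0.554 in DESeq2. There Hist1h1c (0.104), Hist1h1e (0.267) and Hist1h2ap (0.407) did not pass in edgeR's test. Mki67 missed the threshold with the replicate block (0.0925) and in DESeq2 (0.838). Without oviduct replicate 2 the fold changes of Top2a and Prc1 were 1.39 and 3.35. Among the deep C1q-positive cells none of Mki67, Top2a and Prc1 passed in edgeR's test, with fold changes of 1.72, 1.49 and 2.24 and adjusted p of 0.267, 0.298 and 0.141. Sub-cluster 3, led by genes of dividing cells, was outside this test. The 5 genes higher in the uterus were Marco, Slc13a3, Lpl, Lyz2 and Ifitm3, of which DESeq2 called Lpl. Slc13a3 (7 and 17 oviduct UMIs) would not have entered the test on its oviduct counts alone, so its call is a description. Ifitm3 missed the threshold with the replicate block (0.149) and with any library left out (0.0562 to 0.241), and had a fold change of -0.43 (adjusted p = 0.696) in the deep C1q-positive cells. Without uterus replicate 2 Lpl had a fold change of -1.23 (0.219) and Slc13a3 one of -2.20 in place of -3.15, and Lyz2 missed the threshold. Lyz2 stood at 2848 and 1507 CPM (oviduct) against 4679.7 and 6889.8 CPM (uterus). Lyz2 and C1qa belong to the rule that chose the cells, so their levels, and the call of Lyz2, are a description. C1qa stood at 2588 and 2910.1 CPM (oviduct) against 2438 and 3506 CPM (uterus), and Pf4 at 2271 and 2628 CPM (oviduct) against 2776 and 2710.2 CPM (uterus) (adjusted p = 0.839 for Pf4 in edgeR's test).

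The calls moved with the libraries used. A fit with a library left out has a single library in that organ, so its calls do not reflect the spread between that organ's pools. Leaving out a library in turn gave 110 calls without oviduct replicate 1, 52 without oviduct replicate 2, 111 without uterus replicate 1 and 55 without uterus replicate 2. Of the 48 genes, 42, 29, 40 and 25 were called again in the same order, and each of the 48 that was tested kept its direction. The 6 chemokines kept a positive fold change each time, but only 3 of the 6 passed without oviduct replicate 2, without uterus replicate 1 or without uterus replicate 2. A choice made without clusters, 65 cells of at least 5000 UMIs with at least 2 of the 3 C1q genes (29, 18, 11 and 7), shared 57 cells with the macrophage-like sub-cluster and gave 35 calls of 4003 genes, 32 higher in the oviduct, with 5 of the 6 chemokines. At a finer clustering a group of 15 cells led by Bmp2, Rcan1 and Cxcl1 held 7 and 7 oviduct cells against 1 and 0 uterine cells. Whether the handling of the organs before capture moved with these genes was not tested. The listed immediate early and stress genes, tested over the macrophage-like cells, had a median log2 fold change of 0.23. Of 20 tested 2 were called, Egr2 and Nr4a1, both higher in the oviduct, against 1.16% of all genes tested there. Neither passed with the replicate block (adjusted p = 0.0696 and 0.156) or in DESeq2 (0.248 and 0.0503).

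The promoters of Cxcl1 and Cxcl2 are shown for the pair of neighbouring chemokine genes that moved together in the macrophage-like cells. The 250 bases before their RefSeq starts (GRCm38.p6, chr5:90890995-90891244 and chr5:90903649-90903898, both plus strand) each hold 2 matches, on either strand, to GGG, any 2 bases and TTTCC, a form of the site bound by NF-kB. Capitals mark the matches, which begin 89 and 71 bases before the start in Cxcl1 and 97 and 78 in Cxcl2, and do not overlap.
Cxcl1: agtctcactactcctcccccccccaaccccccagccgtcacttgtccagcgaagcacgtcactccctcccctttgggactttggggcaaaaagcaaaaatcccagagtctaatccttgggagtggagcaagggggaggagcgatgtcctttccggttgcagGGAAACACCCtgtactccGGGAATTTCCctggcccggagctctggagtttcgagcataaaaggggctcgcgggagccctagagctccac
Cxcl2: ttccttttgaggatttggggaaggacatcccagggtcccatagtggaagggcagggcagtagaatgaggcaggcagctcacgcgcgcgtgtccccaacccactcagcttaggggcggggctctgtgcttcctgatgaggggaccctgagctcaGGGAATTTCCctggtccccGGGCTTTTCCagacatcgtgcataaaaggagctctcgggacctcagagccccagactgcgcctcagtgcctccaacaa
A match is found in 1.41% of the 32851 windows. The windows of Ccl3, Ccl12 and Il1a hold no match, and those of Ccl4 and Ccl7 were not analysed here.

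Beside the class II genes, Plbd1 was the 1 gene called higher in the uterus. Plbd1, at chr6:136612070-136661928 (GRCm38), had 18 and 16 UMIs (oviduct) and 57 and 50 UMIs (uterus) and stood at 27.5 and 34.7 CPM (oviduct) against 151 and 144 CPM (uterus). Both uterine libraries lay above both oviduct libraries (log2 fold change -2.30 ± 0.26 (SE), adjusted p = 0.0476 in edgeR's test). The 4 cells with H2-Aa held 6 and 15 of its UMIs in uterus replicate 1 and 27 and 15 in uterus replicate 2. Its adjusted p was 0.0700 without oviduct replicate 1, 0.158 with the replicate block, 0.0871 with the free-RNA bound subtracted and 0.693 under a stricter rule (at least 5 of the 7 genes and 0.5% of UMIs), where its fold change was -1.22. Ccr2 stood at 55.0 and 80.3 CPM (oviduct) against 432 and 173 CPM (uterus) (-2.20 ± 0.44 (SE), adjusted p = 0.251), with uterus replicate 1 the highest. The 4 cells with H2-Aa held 29 and 19 of the 163 Ccr2 UMIs of uterus replicate 1, and 44 and 16, that is all 60, of those of uterus replicate 2. Lyz2, 1 of the 7 genes of the rule, stood at 2807 and 2799 CPM (oviduct) against 5130.4 and 4566 CPM (uterus), a description only, and Hp, the haemoglobin-binding haptoglobin, at 38.2 and 52.1 CPM (oviduct) against 130.0 and 121 CPM (uterus) (-1.53 ± 0.27 (SE), adjusted p = 0.162). Neither Ccr2 nor Hp passed the threshold over all myeloid cells.

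Markers of other blood cell types also differed between the sums. The monocyte markers summed to 302 and 619 CPM (oviduct) and 1385 and 780 CPM (uterus), with 7, 9, 10 and 10 of 10 markers present. The neutrophil markers summed to 21.4 and 1042 CPM against 3335 and 12093 CPM, with 2, 7, 7 and 10 of 10 present. In uterus replicate 2, 1 cell held most of these UMIs, among them 1011 of S100a8 and 1462 of S100a9. Both genes were at 0 in oviduct replicate 1. Without the 14 cells that carried markers of other blood cell types (0, 3, 5 and 6), edgeR's test called 0 genes, 310 had an unadjusted p under 0.05, and Plbd1 had a log2 fold change of -1.32 and an adjusted p of 0.830. Ccl3 then had a log2 fold change of 1.75 with an adjusted p of 0.139. No second tool was run on that subset.

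Genes of tissue-resident macrophages gave no call. Of 14 listed, 12 were tested, 0 passed in either direction and 5 had an unadjusted p under 0.05, all higher in the oviduct, against 4.0% of all genes tested; the median log2 fold change was 0.55. Mrc1, which takes up glycoproteins, stood at 1129.6 and 1364 CPM (oviduct) and 809 and 463 CPM (uterus) (0.94 ± 0.26 (SE), adjusted p = 0.473). Lyve1, the hyaluronan receptor of macrophages beside vessels, stood at 495 and 389 CPM (oviduct) and 273 and 152 CPM (uterus) (1.02 ± 0.29 (SE), adjusted p = 0.494). Cd163, the scavenger receptor for haemoglobin, stood at 85.5 and 28.2 CPM (oviduct) and 15.9 and 2.88 CPM (uterus) (2.54 ± 0.78 (SE), adjusted p = 0.496), and 1 cell held 57.1% of its 7 uterine UMIs. Cd163 entered the test only through the oviduct. Counts and medians of the lists that hold it, here and below, are therefore a description. In these 3 genes the oviduct libraries lay above the uterine ones and uterus replicate 2 was the lowest.

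Folr2, a folate receptor, overlapped between the organs at 84.0 and 71.7 CPM (oviduct) and 114 and 43.2 CPM (uterus). Timd4, a receptor for dying cells found on long-resident macrophages, had 2, 21, 1 and 1 UMIs, and 1 cell held 87.0% of the oviduct UMIs. Pf4 stood at 2207 and 2245 CPM (oviduct) and 1878 and 1628 CPM (uterus) (0.30 ± 0.14 (SE), adjusted p = 0.738). F13a1, a clotting factor made by macrophages, stood at 276 and 299.7 CPM (oviduct) and 334 and 60.4 CPM (uterus).

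Among 14 efferocytosis and scavenging genes, 12 were tested and 0 passed, with a median log2 fold change of 0.56. At an unadjusted p under 0.05, 4 lay toward the oviduct and 1 toward the uterus, against 4.0% and 3.03% of all genes tested. Marco, a scavenger receptor for bacteria and particles, stood out within the uterus, at 56.5 and 106 CPM (oviduct) and 271 and 1562 CPM (uterus). A single cell held 42.3% of its uterine UMIs, and the log2 fold change of -3.58 ± 0.80 (SE), adjusted p = 0.322 did not pass over all myeloid cells. Over the macrophage-like cells it stood at 56.4 and 59.2 CPM (oviduct) against 283 and 2833 CPM (uterus) (-4.78 ± 0.69 (SE), adjusted p = 0.00137), where uterus replicate 2 rests on 6 cells; without that library the fold change was -2.28, and DESeq2 gave an adjusted p of 0.0749. Cd36, a receptor for lipids, stood at 298 and 208 CPM (oviduct) and 308 and 348 CPM (uterus).

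The Csf1 receptor axis was present on the receptor side. Il34 had 0 UMIs in the 223 cells, and Csf1 had 14, 6, 4 and 7 UMIs, 21.4 and 13.03 CPM (oviduct) and 10.6 and 20.1 CPM (uterus). In endothelial cells of the same libraries Csf1 stood at 12.5, 18.1, 10.9 and 10.4 CPM, which overlaps the myeloid range. Over the other kept cells, myeloid cells left out, Csf1 stood at 14.9 and 18.9 CPM (oviduct) and 5.66 and 5.92 CPM (uterus). The lineage factor Maf stood at 992 and 901 CPM (oviduct) and 753 and 403 CPM (uterus) and Cebpb at 772 and 1255 CPM (oviduct) and 1448 and 538 CPM (uterus). Of 10 genes of this list tested, Csf1r of the rule among them, 0 passed, with a median of 0.20. At an unadjusted p under 0.05 there were 2, both higher in the oviduct, against 4.0% of all genes tested.

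Complement and Fc receptor genes gave no call between the organs. C1qa stood at 2108 and 2208 CPM (oviduct) and 1435 and 1979 CPM (uterus), C1qb at 1818 and 1876 CPM (oviduct) and 1342 and 1332 CPM (uterus) and C1qc at 1230.3 and 1159.6 CPM (oviduct) and 817 and 903 CPM (uterus); C1qa and C1qb belong to the rule. Of 9 complement genes tested 0 passed (median 0.29), with 3 toward the oviduct and 1 toward the uterus at an unadjusted p under 0.05. Of 10 genes for ITAM adaptors and Fc receptors 0 passed (median 0.11), with 2 at that p, both toward the oviduct. Over all genes tested the shares were 4.0% toward the oviduct and 3.03% toward the uterus. Both lists hold genes of the rule (C1qa and C1qb, Tyrobp and Fcer1g), so these counts and medians are a description. Fcer1g, the common Fc receptor chain, overlapped at 1911 and 1748 CPM (oviduct) and 1960.4 and 1738 CPM (uterus). Clec7a, also on that list, was not analysed here.

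Lysosomal, lipid and iron genes were abundant and gave no call over all myeloid cells. Apoe, the lipid carrier, stood at 12696 and 12804 CPM (oviduct) and 8998 and 5179 CPM (uterus) (0.81 ± 0.22 (SE), adjusted p = 0.437), with both uterine libraries below both oviduct libraries. The ferritin chains Ftl1 and Fth1 stood at 11592 and 10230.3 CPM (oviduct) against 11359 and 13252 CPM (uterus) and at 10612 and 9375 CPM (oviduct) against 11192 and 16270.2 CPM (uterus), against 1463 to 1677 CPM of Ftl1 in endothelial cells. Hmox1 overlapped at 1473 and 682 CPM (oviduct) and 519.9 and 895 CPM (uterus), and 1 cell held 27.8% of its uterine UMIs. Of 14 lysosome and lipid genes tested, Lyz2 and Cd68 of the rule among them, 4 had an unadjusted p under 0.05 (median 0.11). Of these 4, 2 lay toward each organ, against 7.04% of all genes in either direction. Of 11 iron and haem genes 5 did, 3 toward the oviduct and 2 toward the uterus (median -0.22). That list also holds Hpgd, which degrades prostaglandins and is not an iron gene, at 327 and 299.7 CPM (oviduct) against 106 and 74.8 CPM (uterus) (1.75 ± 0.25 (SE), adjusted p = 0.0769).

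Of the other lists over all myeloid cells, 15 inflammatory genes gave 0 calls and 6 genes at an unadjusted p under 0.05, all higher in the oviduct (4.0% of all genes tested; median 0.69). Il1a was 1 of them, with 59 and 89 UMIs (oviduct) and 3 and 0 UMIs (uterus), a ratio of 32.0 (counting interval 10.8 to 157) and an adjusted p of 0.109. Il1a entered the test only through the oviduct, so the count and median of the inflammatory genes are a description. Il1b overlapped at 372 and 773 CPM (oviduct) and 700.3 and 196 CPM (uterus). The 20 immediate early and stress genes a median of 0.26 and 0 calls, the 5 interferon response genes a median of -0.18 and 0 calls, the 7 macrophage growth factors a median of 0.39 and 0 calls, and the 5 matrix proteases and inhibitors a median of 0.45 and 0 calls. Igf1, a growth factor, stood at 353 and 224 CPM (oviduct) and 191 and 245 CPM (uterus); endothelial cells held 303 to 369 CPM of it, and free RNA could account for up to 26.7% of it in the myeloid cells.

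**Figure D5:**
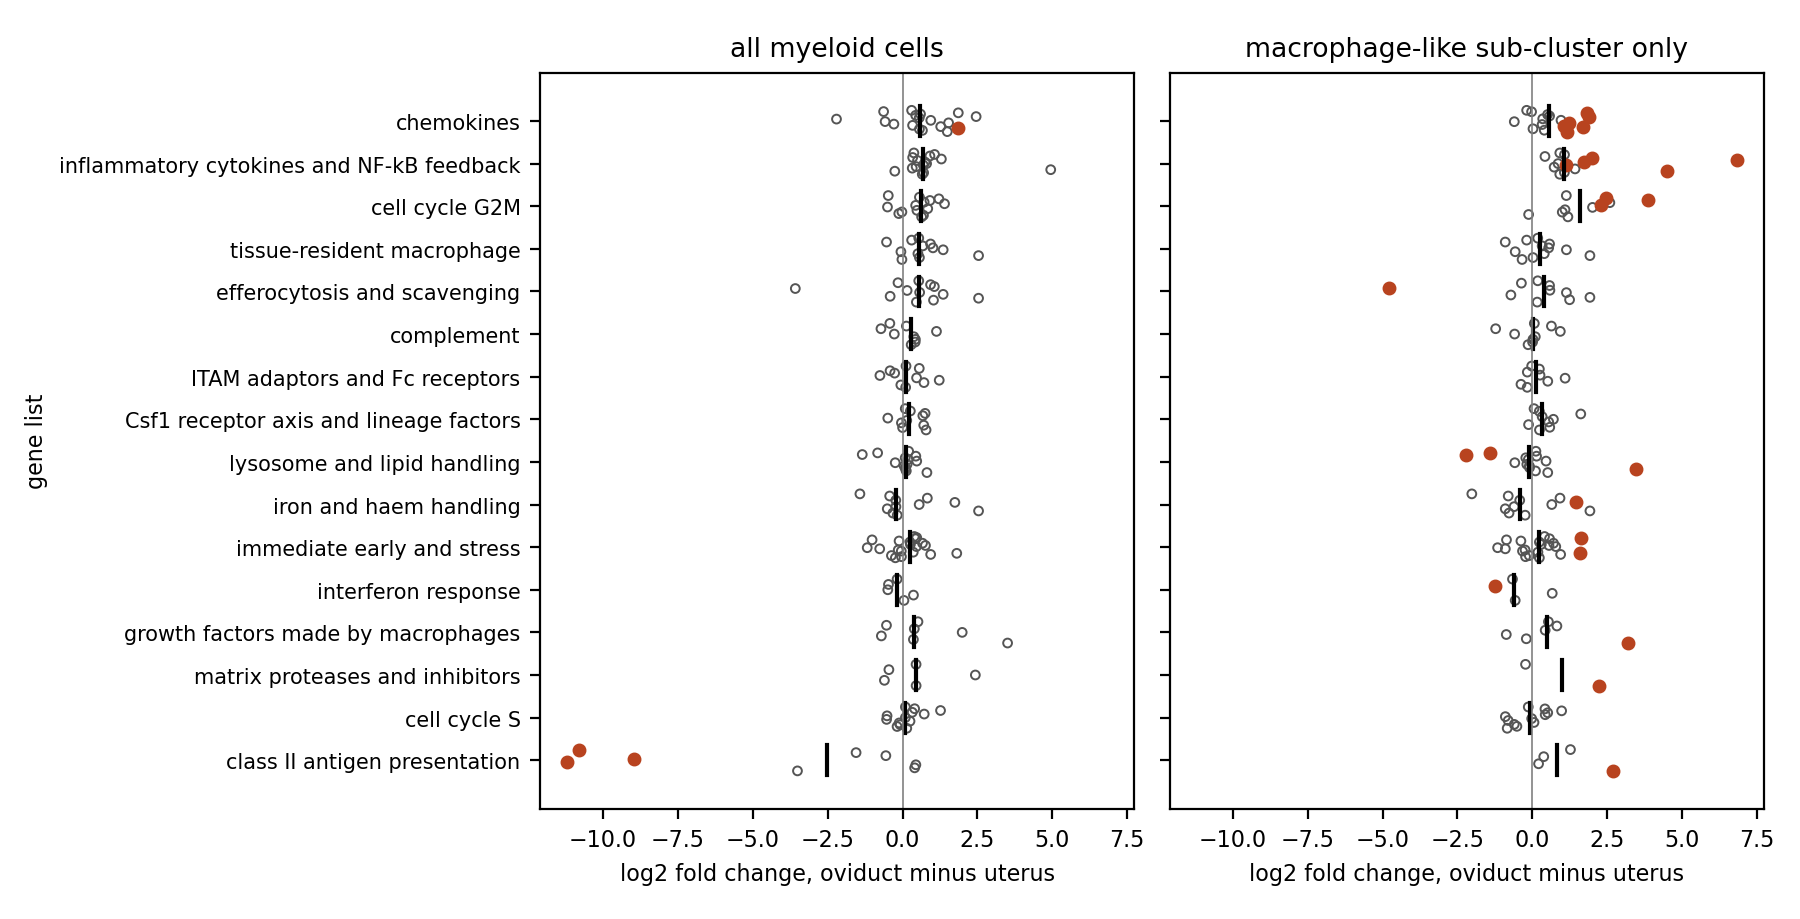
Log2 fold change (oviduct minus uterus) of each tested gene of 16 lists, over all myeloid cells (left) and over the macrophage-like sub-cluster (right); bars mark list medians and filled points adjusted p under 0.05. The class II points at the far left have 0 or 1 oviduct UMIs, and Ptgs2, farthest right, has 0 uterine UMIs, so their distance depends on the fit.

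Transcripts of the G2 and M phases were detected in myeloid cells of every library. After each cell was thinned to 2000 UMIs, which left out 27, 31, 12 and 13 shallower cells, at least 2 of 15 G2 and M phase genes were detected in 27.3% (12 of 44) and 34.2% (13 of 38) of oviduct cells and in 25.7% (9 of 35) and 30.4% (7 of 23) of uterine cells. The organs overlapped (exact permutation p = 0.667), while the unthinned shares did not overlap and went the other way, with means of 42.1% and 47.3% (exact permutation p at its smallest value of 0.3333). Endothelial cells thinned in the same way gave 33.5%, 34.4%, 37.7% and 37.4%. Mki67, a gene of dividing cells, stood at 160.3 and 402 CPM (oviduct) and 98.2 and 106 CPM (uterus) (1.40 ± 0.44 (SE), adjusted p = 0.496). The 14 G2 and M phase genes tested gave 0 calls (median 0.60). At an unadjusted p under 0.05 were 2 of them, both higher in the oviduct, against 4.0% of all genes tested. The 13 S phase genes gave 0 calls (0 at an unadjusted p under 0.05, median 0.10).

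A last test asked whether a difference between the organs was particular to the myeloid cells, by setting it against the same difference in endothelial cells. In edgeR's model of the 8 sums, 3 of 11183 genes passed (0.0268%), all with the uterus relatively higher in myeloid cells: H2-Ab1, Lcn2 and Cd36. H2-Ab1 had an interaction of -9.58 ± 0.85 (SE), adjusted p = 0.00116, and in endothelial cells it had 13, 6, 4 and 14 UMIs. It entered this test only through the uterine myeloid sums, where it was high, so its call is a description. The 4 cells with H2-Aa held 9 and 129 of its UMIs in uterus replicate 1 and 186 and 79 in uterus replicate 2. Lcn2, a siderophore-binding protein of neutrophil granules, had 0 and 1 UMIs (oviduct) and 15 and 217 UMIs (uterus), of which 211 were in the single cell with Ngp and Camp above. Lcn2 too entered this test only through the uterine myeloid sums, so its call is a description. For Cd36 the interaction of -5.70 came with a fold change of -0.41 in myeloid cells and of 5.35 in endothelial cells. The chemokines gave no call in this test: Ccl3 had an interaction of 0.11 with an adjusted p near 1, with 1 UMI in endothelial cells to compare with. In endothelial cells 308 of 11275 genes (2.73%) differed between the organs.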

How the data were processed

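Single-cell 3′ RNA libraries of 2 oviduct and 2 uterus pools were used as the authors deposited them: UMI counts per gene and barcode, made with Cell Ranger (6.0.1 in the headers of the called-barcode matrices, 4 in those of all barcodes, per the file headers). The build mm10, Cell Ranger and Seurat 4.2.3 are named in the submitters' processing notes; how Seurat was used is not given in the sources used here. From these counts, cells were chosen by the marker rule stated in the results, clustered with scanpy 1.11.5 (1000 variable genes, 15 components, 10 neighbours, Leiden resolution 0.5), and summed per library. Sums were compared with edgeR 4.0.16 (TMM scaling, filterByExpr, glmQLFTest, Benjamini-Hochberg adjustment over all genes tested, called under 0.05), after a check on simulated counts, with DESeq2 1.42.0 as an alternative.

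The members and gene lists were chosen with earlier results of these data known. Genes are named by rule: up to 12 per direction, at least 20 CPM on average, libraries of the organs not overlapping, at most 25% of UMIs within the free-RNA bound, without ribosomal, mitochondrial, globin, Gm and Rik genes, called genes first and then those of smallest p; then the 2 most abundant and every called gene of each list, and a fixed set of myeloid genes. A sub-cluster was named when 3 markers of a list were among its 50 leading genes, a rule set after the clusters were seen; shallow sub-clusters needed a marker in their top 10. The free-RNA bound attributes all stromal RNA in the myeloid cells to free RNA, with its composition taken from uncalled barcodes of 1 to 100 UMIs. Scrublet scores removed 4 of the 223 cells in an alternative; the other fits kept them. Counts of the 2 pools of an organ were further apart than random counting of UMIs alone gives (chi-square per degree of freedom 2.49 and 3.50). That value takes UMIs as independent, and the sampling of few cells also adds to it. Gene positions are from the GENCODE annotation of GRCm38. A gene that the rule names, and the list that holds it, are not reported here.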

Additional observations from a re-analysis of the deposited data

Results flagged for a closer look

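The organ difference of H2-Ab1 in myeloid cells was set against that in endothelial cells. Its oviduct over uterus log2 fold change in myeloid cells minus that in endothelial cells was -9.58 ± 0.85 (SE), with an adjusted p of 0.00116 in edgeR's test of the interaction. The oviduct libraries held 0 and 1 UMIs and the uterine libraries 138 and 265, and in endothelial cells the counts were 13, 6, 4 and 14. The size of the value depends on the fit, since 1 oviduct UMI stands behind it. A single cell held 46.2% of the uterine UMIs. The gene entered the test only through the uterine myeloid sums, where it was high, so the value is a description.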

How the results depend on the processing

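The count of genes that differed between the organs depended on the settings, and the direction of most named genes did not. Against 5 calls, DESeq2 gave 23, library totals in place of TMM 12, no filter on low counts 182, a stricter marker rule 28, leaving out collagen-rich cells 17, leaving out high doublet scores 11, thinning to 2000 UMIs 8, subtracting the free-RNA bound 0 (376 at an unadjusted p under 0.05) and leaving out cells with markers of other blood cell types 0 (310), with no second tool run on these 2. Added after seeing the data, the macrophage-like sub-cluster gave 48, all cells but the monocyte, neutrophil and stroma sub-clusters 38 and the C1q-positive deep cells 35. Leaving out 1 library gave 16 to 187 calls. For the comparison with endothelial cells, 3 calls became 6 with DESeq2, 91 with no filter, 76 with the stricter rule and 11 to 85 with 1 library left out.

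A fit with the number as a replicate block gave 5 calls, all toward the uterus and 3 of them shared; Ccl3 and Plbd1 then had an adjusted p of 0.158, and Cd74 and Lcn2 passed. Lcn2 entered that fit only through the uterus, where it was high. Same-numbered pools correlated at -0.11 in their deviations, and which numbers share neonates is not stated; the crossed pairing gave 28 calls. In the macrophage-like cells the block gave 26 calls in place of 48, and in the C1q-positive deep cells 66 in place of 35. H2-Ab1 gave no value under the stricter rule, without cells of other blood cell types or in the added subsets, where it was not tested.

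Of 451 alternative values of named genes 6 reversed: Hp was 0.28 without cells of other blood cell types, Cd74 was 2.70, 2.69 and 2.63 in the 3 added subsets, and the interaction of Ccl3 was -0.018 under the stricter rule and between -0.66 and 2.03 with 1 library left out. The difference in the myeloid share of kept barcodes turned to -0.0871 percentage points with at least 1000 genes and at most 10% mitochondrial UMIs and ranged from -0.0544 to 0.305 with 1 library left out. That in the stroma-led share ranged from -3.97 to 8.55, and that in G2 and M detection from -0.802 to 6.14, with -5.22 unthinned. The causes were not tested. Few cells limit all values: 36 in the smallest library.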

Other observations

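The filters removed 71 further called barcodes that met the marker rule: 24 (oviduct 1), 26 (oviduct 2), 11 (uterus 1) and 10 (uterus 2), of which 22, 23, 10 and 10 held fewer than 500 genes. None of the 71 carried 3 neutrophil markers.

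At a finer clustering 9 cells formed a group led by Ear2, Ace, Treml4 and Adgre4, genes known from patrolling monocytes; 1 and 2 of them were oviduct cells and 6 and 0 uterine ones. Spp1, osteopontin, had 15 and 49 UMIs (oviduct) and 0 and 3 UMIs (uterus), a ratio of 13.9 (counting interval 4.53 to 69.0); 1 cell held 37.5% of the oviduct UMIs, and the gene was too low to be tested.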
